A study of Rattus norvegicus with 9 samples.

Results

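Interferon response genes were described in a rat model of bladder cancer. A list of 37 genes held interferon receptor chains, the transcription factors that carry the signal, sensors of viral RNA, and genes that cells switch on when interferon binds. A gene was measured if a probe set of the array was annotated to it and to no other gene. Where it had several, the one with the highest mean over the 9 arrays was used. By that rule 35 of the 37 genes were measured, out of 14217 genes on the array, with 53 probe sets in all. Gbp5 and Xaf1 had no probe set of their own, so their expression is not analysed here.

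Interferons are signalling proteins that cells release when they sense viral or other foreign nucleic acid, or that lymphocytes release when activated. Type I interferons bind a receptor with the chain Ifnar1, and interferon gamma binds one with the chain Ifngr1. Both receptors switch on STAT and IRF transcription factors, which bind short DNA elements near genes that block virus replication, present antigen and damp the signal again. In the bladder, interferon genes are known for the response of urothelium and infiltrating leukocytes to infection and to immunotherapy.

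The study used 9 Affymetrix arrays, 1 for each tissue sample, in 3 groups of 3. Tumors (bladder transitional cell carcinoma, BTCC) and adjacent normal tissue came from the same 3 female SD rats, whose bladders were instilled weekly with 20 mg/ml MNU for 10 weeks, starting at an age of 10 weeks. MNU is a nitrosourea that alkylates DNA and causes bladder tumors when instilled. Normal bladder came from 3 other SD rats. The labels of the normal samples carry the same MNU text and the same age as the tumors, whereas the series design calls the animals normal rats. The numbers 1 to 3 are those of the sample titles and are not stated to mark the rat, and p-values measure the spread between these samples. The adjacent tissue had been exposed to MNU like the tumor beside it.

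Of 8 urothelial markers, Upk1a, Upk1b and Upk3a were bright on all 9 arrays, while in each tissue 2 of the 8 were called higher and 2 lower than in normal bladder. By limma, Upk1a was called lower in tumors (log2 change -1.31, adjusted p = 0.048), and Upk2 changed there by -2.1 without a call (adjusted p = 0.065). Krt20, a keratin of umbrella cells, fell by 3.82 in tumors (adjusted p = 0.021, dim in tumor 2) and by 1.70 in adjacent tissue (adjusted p = 0.0053), and Krt5, a basal keratin, rose by 3.58 and 3.72 (adjusted p = 0.00029 and 0.00021). The summed signal of 7 smooth muscle markers was 102000 to 108000 on normal arrays, 4690 to 35500 on adjacent arrays, and 78900, 2290 and 2720 in tumors 1, 2 and 3. The sum of 5 fibroblast markers was 57500, 4210 and 12800 in the tumors and 75200 to 76900 on normal arrays. Among the tumors, tumor 1 was nearest to normal bladder in both sums, and the part of this in the values given without tumor 1 was not tested. In such bulk tissue, fewer cells of a type and less RNA per cell cannot be told apart. Signals are given as deposited, on a log2 scale, and levels are compared only within a gene. A signal of 50, or 5.64 on the log2 scale, was taken as the limit below which values are dim. The mean over the arrays reached it in 34 of the 35 genes (77.9% of all genes), and every array did in 32 (68.2%). The others were Socs1, Samhd1 and Ifih1. Pearson's r over all probe sets was 0.94 to 0.946 between normal arrays, 0.9 to 0.923 between adjacent arrays and 0.899 to 0.931 between tumors.

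The promoters of these genes show what the list shares in sequence. The table of rat promoters (RefSeq, build GRCr8) held 29 of the 37 genes, and Adar, Mx2, Irf2, Ifit2, Ifitm1, Dhx58, Isg15 and Usp18 were not among them. The core of the interferon-stimulated response element, read here as GAAA, any 2 bases and GAAA again (TTTC, any 2 bases and TTTC on the other strand), stood within 250 bases before the start of 17 of the 29 genes, or 58.6%, against 3.61% of the 27457 genes in the table. The letters TTCNNNGAA, which read the same on both strands and form the core of the gamma-activated site, stood there in 11 of the 29, or 37.9%, against 8.19%. Overlapping matches were counted, and a match describes the letters and not a bound site. The 29 include Gbp5 and Xaf1, which held the first motif but had no probe set of their own. Irf8, Irf1, Irf9 and Samhd1 held the second motif alone. Ifngr1, Ifnar1, Irf3, Stat2, Trim25, Oasl, Mx1 and Ifi35 held neither.

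The stretches below are the 8 with the largest change between adjacent tissue and normal bladder among the genes that hold the first motif, leaving out Socs1, whose signals were dim. They are shown with up to 30 bases on either side, 5′ to 3′ on the strand of the gene, and capitals mark the matches. Each lies upstream of the start of its gene, and in Oas1a a pair of matches overlaps into 1 run.
Ifit3 (chr1:241527252-241527321, + strand): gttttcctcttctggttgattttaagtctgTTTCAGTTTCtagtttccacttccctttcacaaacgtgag
Rsad2 (chr6:48788228-48788297, - strand): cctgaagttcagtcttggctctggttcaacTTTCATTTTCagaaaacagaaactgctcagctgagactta
Oas1a (chr12:41330395-41330465, + strand): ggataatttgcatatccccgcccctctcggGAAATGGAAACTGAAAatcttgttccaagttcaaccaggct
Ifi27 (chr6:128355113-128355267, + strand): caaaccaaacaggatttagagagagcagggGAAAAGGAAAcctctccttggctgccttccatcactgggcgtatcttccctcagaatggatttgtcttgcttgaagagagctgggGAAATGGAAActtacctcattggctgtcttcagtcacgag
Parp14 (chr11:78408028-78408097, + strand): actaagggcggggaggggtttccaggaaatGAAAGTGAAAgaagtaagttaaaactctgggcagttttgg
Irf7 (chr1:205800053-205800122, - strand): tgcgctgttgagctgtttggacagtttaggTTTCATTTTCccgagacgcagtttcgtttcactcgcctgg
Irgm (chr10:33742579-33742642, - strand): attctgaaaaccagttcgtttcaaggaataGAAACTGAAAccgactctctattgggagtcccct
Eif2ak2 (chr6:21941108-21941153, + strand): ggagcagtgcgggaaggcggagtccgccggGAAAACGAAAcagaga
In Ifit3 the match ends 35 bases before the start, in Oas1a 26 and in Irgm 25, whereas in Rsad2 it ends 138 bases before it. Genes with the motif moved in different ways in the tissues. Ifit3 and Parp14 rose in both tumor and adjacent tissue, while Ifi27 lay below the normal arrays in every tumor.

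Adjacent tissue expressed more of these genes than normal bladder, and tumors did so for fewer. In adjacent tissue, 11 of 35 genes were higher and 0 lower at an adjusted p under 0.05 (limma, Benjamini-Hochberg over 31042 probe sets), against 13.3% and 11.5% of all genes. In tumors 5 were higher and 2 lower, against 13.6% and 9.95% of all genes, which for the higher genes is close to the background. The median log2 change of the 35 genes was 0.69 in adjacent tissue (0.01 over all genes) and 0.33 in tumors (0.05 over all genes). The 3 adjacent arrays lay wholly above the 3 normal arrays for 15 genes and wholly below for 0, against 24.8% and 21.9% of all genes. Tumors did so for 10 and 6 genes, against 25.7% and 20.1%. Both comparisons share the 3 normal arrays. With the arrays centred on their medians, 17.6% and 7.67% of all genes were called higher and lower in tumors, and 21.2% and 9.2% in adjacent tissue. Without adjacent array 2, on which most of these genes were highest, 9 genes were higher and 3 lower in adjacent tissue, against 10.9% and 10.2% of all genes, and the median was 0.39. Without tumor 1, 7 genes were higher and 5 lower in tumors, against 20.4% and 17.5% of all genes, which is close to the background. With any 1 of the normal arrays left out, only Irf8 and Ifit3 were called in tumors, where 4.11% to 4.77% of all genes were called higher.

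**Figure D1:**
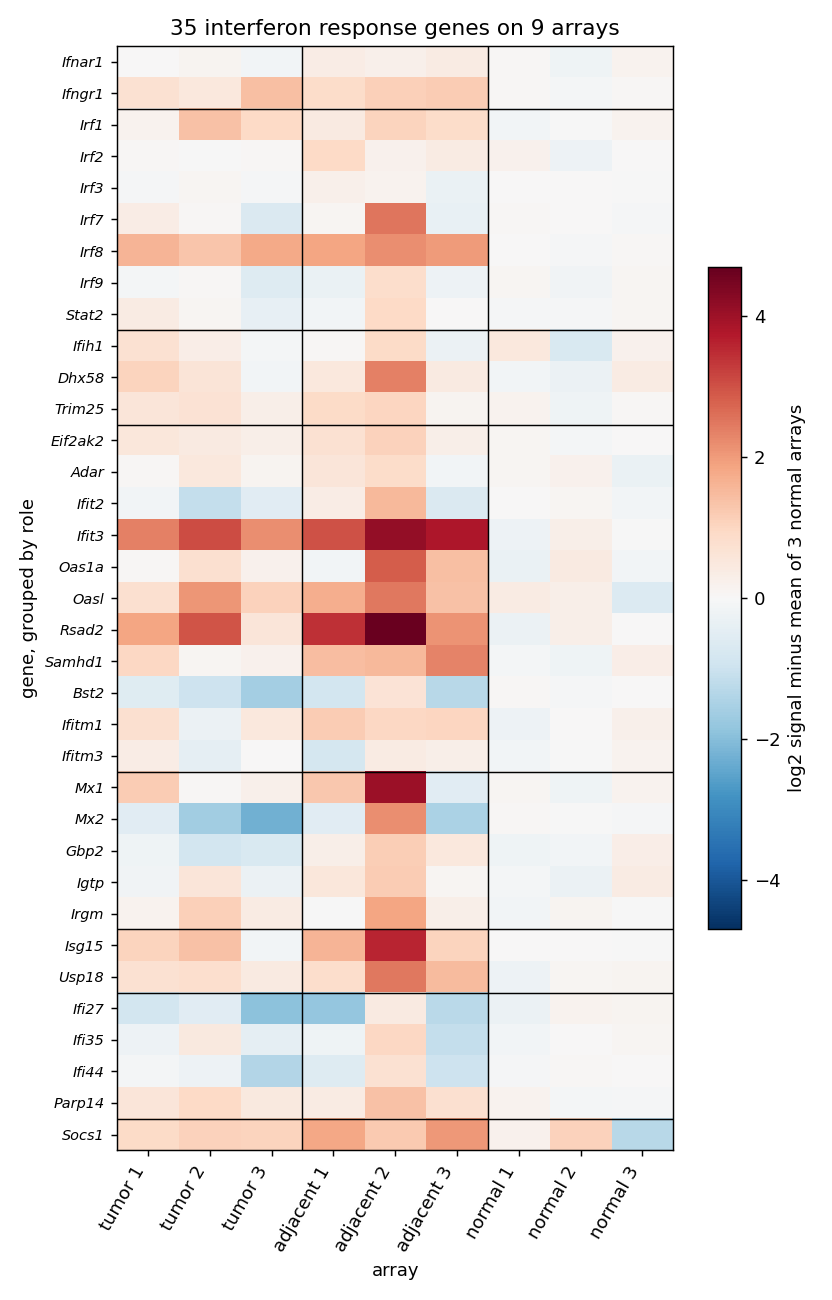
Log2 signal of each of the 35 genes minus the mean of the 3 normal arrays (colour), by gene (rows, grouped by role) and array (columns). Adjacent array 2 lies above the normal mean for all 35 genes, by 0.18 to 4.63, and Ifit3 and Irf8 are raised on all 6 arrays of tumor-bearing rats. Socs1 is dim on all tumor and normal arrays.

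Of the receptor chains, Ifngr1 rose in both tissues. This chain binds interferon gamma. Given in the order of samples 1, 2 and 3, as for all genes that follow, its log2 signal was 11.14, 11.01 and 11.15 in normal bladder, 11.97, 12.21 and 12.30 in adjacent tissue and 11.80, 11.60 and 12.50 in tumors. Every array of tumor-bearing rats lay above every normal array. The log2 change was 1.06 in adjacent tissue (SE 0.13, 2.08-fold, adjusted p = 0.0021) and 0.86 in tumors (SE 0.23, 1.82-fold, adjusted p = 0.039). The tumor call was lost without any 1 of the normal arrays (adjusted p up to 0.133). Ifnar1, the chain for type I interferons, ranged from 7.26 to 7.87 over all arrays and was called in neither comparison.

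Among the 7 transcription factors, Irf8 and Irf1 were called. Irf8, a factor of macrophages, dendritic cells and B cells, had a log2 signal of 9.77, 9.48 and 9.93 in tumors, 10.02, 10.34 and 10.16 in adjacent tissue and 8.16, 8.10 and 8.23 in normal bladder. The 3 groups did not overlap, with adjacent tissue highest and normal bladder lowest. Irf8 was 4.02-fold higher in adjacent tissue (log2 change 2.01, SE 0.15, adjusted p = 0.0005) and 2.96-fold higher in tumors (1.56, SE 0.16, adjusted p = 0.0029), and both calls held without any 1 array. Irf1, which answers interferon gamma and activates antigen presentation genes, stood at 9.77, 10.99 and 10.56 in tumors, 10.04, 10.66 and 10.47 in adjacent tissue and 9.49, 9.60 and 9.78 in normal bladder. Tumor 1 fell within the normal range, while the other arrays of tumor-bearing rats lay above it. Irf1 rose by 0.77 in adjacent tissue (SE 0.19, adjusted p = 0.026), a call lost without adjacent array 2 or any 1 normal array (adjusted p up to 0.11). In tumors the change was 0.82 (SE 0.29, adjusted p = 0.098), and 1.15 without tumor 1 (adjusted p = 0.00153).

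The factors of the type I interferon signal showed another pattern. Irf7, which amplifies the production of type I interferon, had a log2 signal of 9.89, 12.31 and 9.43 on adjacent arrays 1, 2 and 3, 10.13, 9.84 and 9.11 in tumors and 9.83, 9.79 and 9.75 in normal bladder. Only adjacent array 2 stood far from the rest, and neither comparison called Irf7 (log2 change 0.75, SE 0.65, adjusted p = 0.48 in adjacent tissue, and -0.10, SE 0.25, adjusted p = 0.83 in tumors). Irf9 and Stat2, partners in the factor that binds the response element, were also highest on adjacent array 2, at 10.12 and 10.06. On the other 8 arrays Irf9 ranged from 8.68 to 9.39 and Stat2 from 8.76 to 9.53. Irf2, a repressor of the response, and Irf3, which starts it from the sensors, were highest on adjacent array 1, at 10.61 and 11.07, and were called in neither comparison.

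No sensor of viral RNA was called. Trim25, which switches on an RNA sensor by adding ubiquitin, had the smallest p of the sensors. Its log2 signal was 10.70, 10.81 and 10.41 in tumors, 11.03, 11.16 and 10.27 in adjacent tissue and 10.30, 9.93 and 10.20 in normal bladder. Tumors lay above normal bladder on every array, but adjacent array 3 lay within the normal range, and the log2 change was 0.50 in tumors (adjusted p = 0.068) and 0.68 in adjacent tissue (adjusted p = 0.092). Dhx58, a helicase that regulates RNA sensing, reached 9.06 on adjacent array 2 and 6.42 to 7.71 elsewhere. Its other 2 probe sets were highest on that array as well, at 8.44 and 8.81. Ifih1, a sensor of long double-stranded RNA, was dim on 1 normal array and ranged from 5.41 to 7.02.

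The antiviral effectors held the largest rises. Ifit3, which belongs to a family that binds foreign RNA, had a log2 signal of 9.08, 10.20 and 9.88 in adjacent tissue, 8.46, 9.14 and 8.27 in tumors and 5.84, 6.35 and 6.06 in normal bladder. All 6 arrays of tumor-bearing rats lay far above the normal arrays. Ifit3 was 12.4-fold higher in adjacent tissue (log2 change 3.64, SE 0.31, adjusted p = 0.00073) and 5.8-fold higher in tumors (2.54, SE 0.29, adjusted p = 0.0039), and both calls held without any 1 array. Its relative Ifit2 did not share this pattern. Ifit2 stood at 9.68, 8.69 and 9.27 in tumors, 10.16, 11.33 and 9.13 in adjacent tissue and 9.85, 9.90 and 9.70 in normal bladder. All tumors lay below all normal arrays (log2 change -0.60, SE 0.25, adjusted p = 0.14), and Ifit2 passed the test in tumors without tumor 1 (-0.84, adjusted p = 0.0126).

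Rsad2, which encodes viperin, an enzyme that makes a chain-ending nucleotide, had a log2 signal of 10.86, 12.06 and 9.54 in adjacent tissue, 9.29, 10.40 and 8.01 in tumors and 7.16, 7.70 and 7.44 in normal bladder. The lowest tumor lay just above the highest normal array, and the spread within tumors and within adjacent tissue exceeded 1 log2 unit (SD 1.20 and 1.26, n = 3 each). Rsad2 was 10.5-fold higher in adjacent tissue (log2 change 3.39, SE 0.55, adjusted p = 0.0056), a call that held without any 1 array. In tumors the change was 1.80 (SE 0.55, adjusted p = 0.063), and 2.41 without tumor 3 (adjusted p = 0.0228). Oasl, of the oligoadenylate synthetase family of antiviral proteins, stood at 8.97, 9.76 and 8.64 in adjacent tissue, 8.05, 9.36 and 8.35 in tumors and 7.66, 7.54 and 6.64 in normal bladder. No array of tumor-bearing rats reached down to the normal range. Oasl was 3.59-fold higher in adjacent tissue (log2 change 1.85, SE 0.37, adjusted p = 0.012) and held without any 1 array (adjusted p up to 0.0456). Its change in tumors was 1.30 (SE 0.41, adjusted p = 0.070), and 1.57 without tumor 1 (adjusted p = 0.0211).

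Samhd1 and Ifitm1 rose in adjacent tissue. Samhd1, which breaks down nucleotides that viruses need, had a log2 signal of 7.06, 7.14 and 7.94 in adjacent tissue, 6.61, 5.70 and 5.82 in tumors and 5.52, 5.41 and 5.93 in normal bladder, where 2 arrays were dim. Adjacent tissue lay above all other arrays, and tumors overlapped with normal bladder. The log2 change was 1.76 in adjacent tissue (SE 0.35, 3.39-fold, adjusted p = 0.012) and 0.42 in tumors (SE 0.38, adjusted p = 0.49). The call in adjacent tissue was lost without normal 1 or 2 (adjusted p up to 0.0548). Ifitm1, a membrane protein that blocks virus entry, stood at 12.77, 12.58 and 12.59 in adjacent tissue, 12.36, 11.32 and 12.10 in tumors and 11.35, 11.59 and 11.84 in normal bladder. The 3 adjacent arrays lay close together and above all others, and Ifitm1 was 2.08-fold higher there (log2 change 1.06, SE 0.15, adjusted p = 0.0034), a call that held without any 1 array. In tumors it changed by 0.33 (SE 0.27, adjusted p = 0.44).

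Bst2, or tetherin, which holds budding viruses at the cell surface, went the other way. Its log2 signal was 11.05, 10.65 and 10.03 in tumors, 10.76, 12.28 and 10.31 in adjacent tissue and 11.68, 11.57 and 11.66 in normal bladder. All tumors and adjacent arrays 1 and 3 lay below the narrow normal range, and adjacent array 2 lay above it. Bst2 fell by 1.06 on the log2 scale in tumors (SE 0.24, adjusted p = 0.026), a call lost without tumor 2 or any 1 normal array (adjusted p up to 0.0948) and with all 9 arrays in 1 fit (adjusted p = 0.14). In adjacent tissue the change was -0.52 (SE 0.44, adjusted p = 0.47), and -1.10 without adjacent array 2 (adjusted p = 0.0101). Eif2ak2, the kinase PKR that stops translation, changed by 0.69 in adjacent tissue (adjusted p = 0.063) and 0.41 in tumors (adjusted p = 0.072), with both groups above the normal arrays. Oas1a, a synthetase of the second messenger that activates RNase L, reached 10.48 on adjacent array 2 against 7.34 to 9.07 elsewhere, and was called in neither comparison (adjusted p = 0.19 in adjacent tissue and 0.46 in tumors), but without adjacent array 1 its change in adjacent tissue was 2.13 (adjusted p = 0.0136). Adar, which edits double-stranded RNA, and Ifitm3, a relative of Ifitm1, overlapped across the 3 groups.

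**Figure D2:**
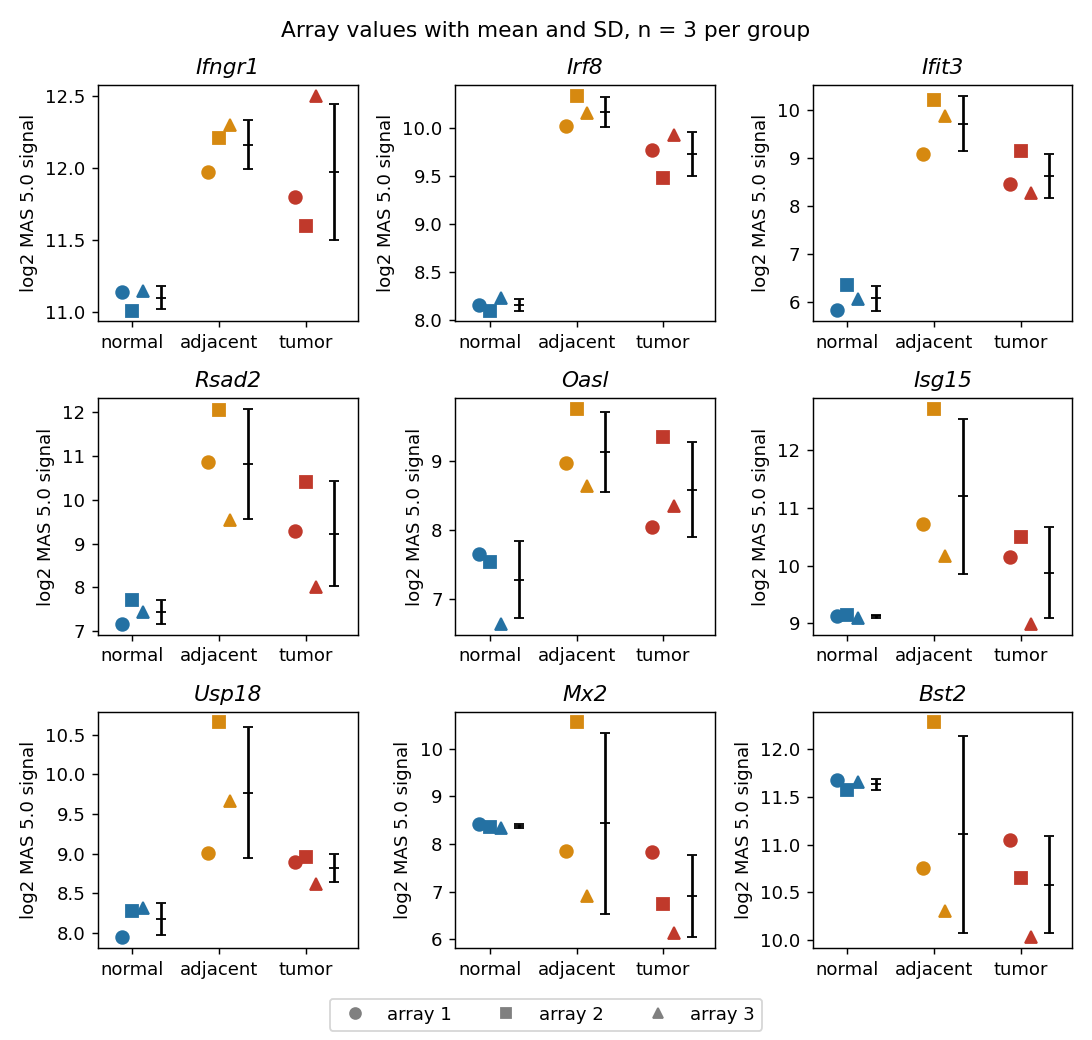
Log2 MAS5 signal of 9 genes by group, each symbol being 1 array (circle, square and triangle for samples 1, 2 and 3), with the mean and SD of each group, n = 3. Each panel has its own axis, which does not start at 0. Adjacent array 2 is the highest of the 9 arrays in every panel but that of Ifngr1. All arrays of tumor-bearing rats lie above all normal arrays for Ifngr1, Irf8, Ifit3, Rsad2, Oasl and Usp18, but not for Isg15, Mx2 and Bst2.

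The interferon-induced GTPases hold Mx proteins, which bind viral particles, guanylate-binding proteins and immunity-related GTPases. Among the 5 measured, Mx2 fell in tumors and no other was called. The log2 signal of Mx2 was 7.83, 6.74 and 6.14 in tumors, 7.85, 10.56 and 6.91 in adjacent tissue and 8.43, 8.36 and 8.34 in normal bladder. Adjacent array 2 lay above the normal range and all other arrays of tumor-bearing rats lay below it. Mx2 fell by 1.47 in tumors (SE 0.41, adjusted p = 0.047), a call lost without tumor 2, tumor 3 or any 1 normal array (adjusted p up to 0.142) and with all 9 arrays in 1 fit (adjusted p = 0.251). In adjacent tissue the change was 0.06 (SE 0.80, adjusted p = 0.97), and a second probe set of Mx2 was dim on all arrays. Mx1 had a log2 signal of 8.98, 11.73 and 7.18 in adjacent tissue, 8.92, 7.76 and 7.96 in tumors and 7.79, 7.49 and 7.86 in normal bladder. Adjacent arrays 2 and 3 were the highest and the lowest of all 9. The change of Mx1 in adjacent tissue was 1.58 (SE 0.96, adjusted p = 0.31), and 2.64 without adjacent array 3 (adjusted p = 0.0359).

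Gbp2, a guanylate-binding protein induced by interferon gamma, stood at 9.28, 8.61 and 8.76 in tumors, 9.78, 10.64 and 9.98 in adjacent tissue and 9.28, 9.37 and 9.82 in normal bladder. Tumors lay at or below the lowest normal array and below all adjacent arrays. Its change was -0.61 in tumors (SE 0.23, adjusted p = 0.11), and -0.81 without tumor 1 (adjusted p = 0.015), while in adjacent tissue it was 0.64 (SE 0.25, adjusted p = 0.12). Igtp and Irgm, both immunity-related GTPases, were highest on adjacent array 2, at 9.56 and 10.00, and were called in neither comparison.

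Both genes of the ISG15 system rose in adjacent tissue. Isg15, a ubiquitin-like protein that is attached to other proteins, had a log2 signal of 10.72, 12.71 and 10.17 in adjacent tissue, 10.15, 10.49 and 8.99 in tumors and 9.13, 9.14 and 9.10 in normal bladder. Tumor 3 lay just below the normal arrays and the other arrays of tumor-bearing rats above them. Isg15 was 4.21-fold higher in adjacent tissue (log2 change 2.07, SE 0.56, adjusted p = 0.039). That call was lost without any 1 normal array (adjusted p up to 0.121) and held without adjacent array 2, where the change was 1.32 (adjusted p = 0.00964). In tumors the change was 0.75 (SE 0.36, adjusted p = 0.19), and 1.20 without tumor 3 (adjusted p = 0.0168). Usp18, which removes Isg15 from proteins and damps type I interferon signalling, stood at 9.01, 10.66 and 9.66 in adjacent tissue, 8.89, 8.95 and 8.61 in tumors and 7.94, 8.27 and 8.31 in normal bladder. The 3 groups did not overlap. Usp18 was 3.04-fold higher in adjacent tissue (log2 change 1.60, SE 0.38, adjusted p = 0.023) and 1.57-fold higher in tumors (0.65, SE 0.18, adjusted p = 0.046). Both calls were lost without any 1 normal array (adjusted p up to 0.0942 and 0.158), and the tumor call also without tumor 2 or 3 and with all 9 arrays in 1 fit (adjusted p = 0.256).

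Of the other induced genes, Parp14 rose in both tissues, and Ifi27 and Ifi44 were lower than in normal bladder on most arrays. Parp14, an ADP-ribosyltransferase, had a log2 signal of 9.71, 10.09 and 9.61 in tumors, 9.55, 10.51 and 9.90 in adjacent tissue and 9.30, 9.07 and 9.08 in normal bladder. All arrays of tumor-bearing rats lay above all normal arrays. Its log2 change was 0.84 in adjacent tissue (SE 0.24, adjusted p = 0.047) and 0.65 in tumors (SE 0.16, adjusted p = 0.036). Of the arrays, only adjacent 1 and tumor 1 could be left out without losing the call (adjusted p up to 0.151 and 0.128), and with all 9 arrays in 1 fit the tumor call was lost (adjusted p = 0.0973). A second probe set of Parp14 changed by 1.04 in adjacent tissue (adjusted p = 0.22) and 0.72 in tumors (adjusted p = 0.12).

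Ifi27, a gene strongly induced by type I interferon, stood at 12.41, 12.73 and 11.34 in tumors, 11.44, 13.70 and 12.01 in adjacent tissue and 13.0, 13.43 and 13.39 in normal bladder. Tumors and adjacent arrays 1 and 3 lay below all normal arrays, and adjacent array 2 above them. The change of Ifi27 was -1.11 in tumors (SE 0.34, adjusted p = 0.065), and -1.24 without tumor 1 (adjusted p = 0.0365). In adjacent tissue it was -0.89 (SE 0.50, adjusted p = 0.27), and -1.55 without adjacent array 2 (adjusted p = 0.00882). Ifi44 stood at 8.25, 9.57 and 7.87 in adjacent tissue, 8.76, 8.63 and 7.47 in tumors and 8.81 to 8.90 in normal bladder. It was called in neither comparison (log2 change -0.30, SE 0.39, adjusted p = 0.66 in adjacent tissue, and -0.58, SE 0.33, adjusted p = 0.28 in tumors). Its change in adjacent tissue was -0.80 without adjacent array 2 (adjusted p = 0.0363) and 0.04 without adjacent array 3 (adjusted p = 0.953). Ifi35, a partner of the STAT-associated protein Nmi, ranged from 8.36 to 10.44, with both ends in adjacent tissue. Socs1, the feedback inhibitor of interferon receptors, stood at 4.81, 5.01 and 4.94 in tumors, 5.71, 5.14 and 5.93 in adjacent tissue and 4.12, 5.0 and 2.6 in normal bladder. It was dim on all tumor and normal arrays and above the limit only on adjacent arrays 1 and 3, so no fold change is given.

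**Figure D3:**
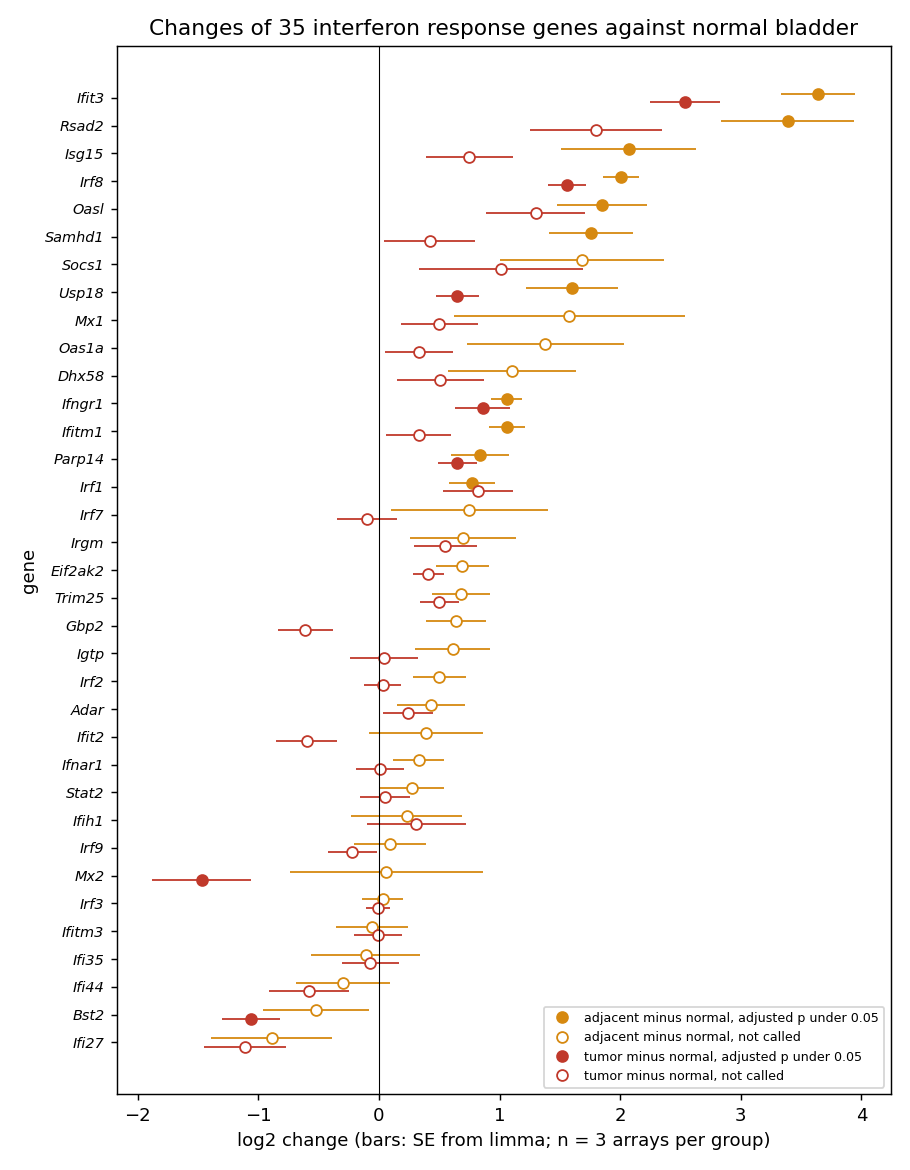
Log2 change against normal bladder of each of the 35 genes (points) with the SE from limma (bars), in adjacent tissue and in tumors, n = 3 arrays per group. Filled points are genes with an adjusted p under 0.05, which are 11 in adjacent tissue and 7 in tumors, and both sets of points share the normal arrays.

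The adjacent samples differed from each other more than the normal samples did. The median SD of the 35 genes was 0.58 within adjacent tissue, 0.46 within tumors and 0.19 within normal bladder, against 0.36, 0.34 and 0.17 over all genes. Adjacent array 2 was the highest of the 9 arrays for 27 of 35 genes, against 6.97% of all genes. Adjacent arrays 1 and 3 were each the highest for 3 of 35, against 10.9% and 14.3%. Over all 53 probe sets of these genes, array 2 was the highest on 36. The 53 include the 35 already counted and further probe sets of 11 genes, so they add no new genes. The share over all probe sets of the array was not taken. Relative to the normal mean, the median of the 35 genes was 0.42 on adjacent array 1, 1.15 on array 2 and 0.28 on array 3, and 0.36, 0.43 and 0.06 on tumors 1, 2 and 3. These are values of single arrays, with no replicate of the sample.

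The gap between adjacent array 2 and the mean of arrays 1 and 3 was also taken by role. It exceeded 1 log2 unit in 15 of 35 genes, against 7.44% of all genes, and its median was 0.96 (0.04 over all genes). The median gap was 1.80 in the ISG15 system (2 genes), 1.70 in the GTPases (5), 1.57 in the other induced genes (4) and 0.99 in the sensors (3). It was 0.72 in the antiviral effectors (11), 0.41 in the transcription factors (7) and -0.03 in the receptors (2). The roles overlapped, with gaps of -0.47 to 2.65 in the transcription factors and 0.76 to 3.65 in the GTPases, and differences between roles were not tested. Mx1 stood 12.6-fold above the mean of the other adjacent arrays, Mx2 9.1-fold, Irf7 6.26-fold, Isg15 4.82-fold and Oas1a 4.56-fold. Irf8, Ifngr1 and Ifitm1 differed from that mean by 0.25, 0.07 and -0.10 on the log2 scale. Samhd1 and Irf2 were lower on array 2, with gaps of -0.35 and -0.47, and Socs1 was dim there. Ifit3, Rsad2, Isg15 and Usp18 lay above normal bladder on each adjacent array and were highest on array 2.

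Over the whole array, 42 genes (0.295%) lay more than 1 log2 unit above all other arrays on adjacent array 2. Of these, 8 were on the list of 37 (Irf7, Dhx58, Ifit2, Oas1a, Rsad2, Mx1, Mx2 and Isg15), 9 were among the other pathway genes described later and 25 were on neither list. Many of the 25 were dim even on that array, such as Chrnb3 at 1.78 and Oxtr at 2.62. The brightest was Ubd, at 12.48 against at most 11.37 elsewhere, and Rnf213 reached 10.46 against at most 9.19. Vch reached 8.98 against at most 6.22. The 25 also included the mast cell proteases Mcpt1, at 11.67 against at most 9.24 elsewhere, and Mcpt9, at 8.04 against at most 5.84. Mcpt3, Mcpt4 and Mcpt8 were among the 25 too, and so was the mast cell receptor chain Fcer1a, at 8.28 against at most 6.85. These mast cell genes were picked from the 25, and no list of mast cell markers was set beforehand. The summed signal of 3 pan-leukocyte markers (Ptprc, Laptm5, Coro1a) was 2860 on adjacent array 2, below the 3670 and 4020 of arrays 1 and 3. The sum of 8 T cell markers was 1340, against 1440 and 1100. Neither sum was highest on array 2. The part of mast cells in the interferon response genes of that array was not tested.

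**Figure D4:**
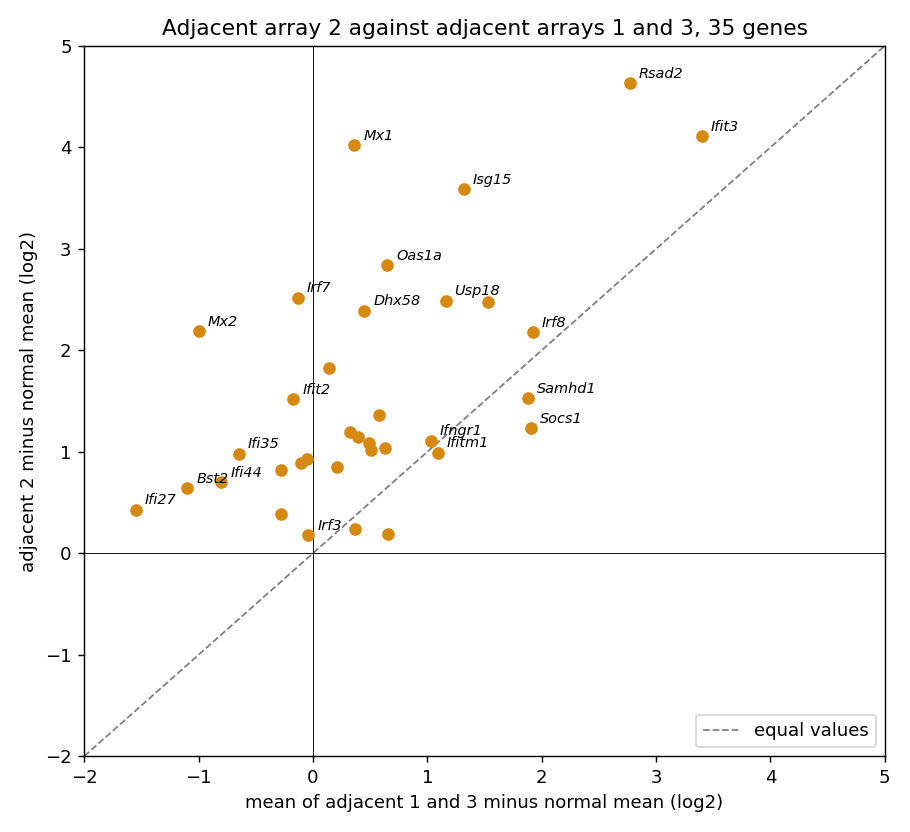
Adjacent array 2 minus the normal mean (vertical axis, log2) against the mean of adjacent arrays 1 and 3 minus the normal mean (horizontal axis, log2), 1 point per gene for 35 genes, with a dashed line of equal values. Mx1, Mx2, Irf7 and Isg15 lie far above the line, whereas Irf8, Ifngr1 and Ifitm1 lie close to it.

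Tumors and adjacent tissue were compared directly as well. By limma, 0 of 35 genes passed the adjusted threshold, as did 0.0% of all genes. At an unadjusted p under 0.05 in limma, 6 of the 35 were lower in tumors and 0 higher, against 1.06% and 1.59% of all genes. The methods' t-test called 0 after adjustment, and 2, Gbp2 and Samhd1, at an unadjusted p under 0.05 and a change of at least 2-fold. Both were lower in tumors, and by that rule 0.317% of all genes were lower and 0.478% higher. Tumors lay wholly below adjacent tissue for 8 genes (Ifnar1, Irf2, Irf8, Samhd1, Ifitm1, Gbp2, Usp18 and Socs1), against 2.96% of all genes, and wholly above it for 0, against 4.1%. The log2 change from adjacent tissue to tumor was -1.34 for Samhd1 (SE 0.40), -1.25 for Gbp2 (SE 0.29) and -0.72 for Ifitm1 (SE 0.27), each with an adjusted p of 1.0. The median over the 35 genes was -0.47 (0.02 over all genes), and 4 of 35 were above 0, against 53.0% of all genes. Without adjacent array 2 the median was -0.07. The blocked fit, which pairs samples by number, called 0 genes.

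A further list of 92 genes of the pathway was written beside the members, and 63 of them were measured. Like the members, it was chosen with earlier results of these data known, so its counts are no independent test of the first list. In adjacent tissue 21 were higher and 0 lower than in normal bladder, against 13.3% and 11.5% of all genes. In tumors 16 were higher and 4 lower, against 13.6% and 9.95%. Without adjacent array 2 the first count was 18 higher and 2 lower, against 10.9% and 10.2%. With 1 normal array left out it was 10 to 13 higher, against 5.96% to 6.48%, and the count in tumors was 4 or 5 higher, against 4.11% to 4.77%. Of the interferons themselves, Ifnb1, Ifng and Ifnk were measured. Their signals were dim on all arrays but adjacent 3, where Ifnk reached 6.04, and none was called. Among 7 other receptor chains and kinases, Il10rb, a chain of the interferon lambda receptor, and the kinase Tyk2 were called higher in both tissues. In adjacent tissue both calls were lost without any 1 normal array (adjusted p up to 0.063 and 0.174), and that of Tyk2 also without adjacent 1 or 2. In tumors that of Tyk2 was lost without normal 2 (adjusted p = 0.0522). Irf5, a factor downstream of Toll-like receptors, rose by 1.57 in adjacent tissue (adjusted p = 0.0027) and 1.72 in tumors (adjusted p = 0.012, lost without normal 2 or 3). The adaptor Myd88 rose by 1.85 and 1.53 (adjusted p = 0.00083 and 0.0017), and both calls held without any 1 array.

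The largest rises among these 63 genes in adjacent tissue were those of the T cell chemokines Cxcl11 and Cxcl10. Cxcl11 had a log2 signal of 7.83, 8.42 and 8.85 in adjacent tissue, 6.77, 6.0 and 6.22 in tumors and 4.87, 5.46 and 5.69 in normal bladder, where 2 arrays were dim. The 3 groups did not overlap, and the log2 change in adjacent tissue was 3.02 (adjusted p = 0.0019). Cxcl10 stood at 8.39, 10.36 and 8.13 in adjacent tissue and 6.32 to 6.74 in normal bladder, and its log2 change of 2.47 (adjusted p = 0.018) was lost without any 1 normal array. In tumors, Ifitm10 rose most, by 1.89 (adjusted p = 0.016, lost without tumor 3 or normal 1 or 3). Tnfsf10, which encodes the death ligand TRAIL, fell by 2.78 (adjusted p = 0.0099, lost without normal 3), and Herc6, which encodes an Isg15 ligase, fell by 1.5 (adjusted p = 0.016, lost without any 1 normal array). Adjacent array 2 was the highest of the 9 for 30 of the 63 genes, against 6.97% of all genes. The rest, among them Myd88, Irf5 and Cxcl11, were not highest there. Ifit1 was lowest there, at 2.93 on that array and 6.18 to 7.68 on the others.

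Several leukocyte markers were higher in adjacent tissue than in normal bladder. Of the 3 adjacent arrays, array 2 had the lowest pan-leukocyte sum, at 2860. The pan-leukocyte sum was 1080 to 1190 on normal arrays, 2860 to 4020 on adjacent arrays and 1450 to 3130 in tumors, and 3 of 3 of these markers were called higher in adjacent tissue and 1 of 3 in tumors. For neutrophils, 3 of 4 measured markers were higher in both tissues, with sums of 118 to 214 on normal arrays, 5940 to 48900 on adjacent arrays and 3440 to 20100 in tumors. For macrophages 2 of 6 were higher in both, with sums of 3060 to 3160, 5200 to 12600 and 5420 to 7520. For T cells 2 of 8 were higher in both, with sums of 641 to 808, 1100 to 1440 and 654 to 1080. Other macrophage and T cell markers went the other way in adjacent tissue, none of them called. Csf1r lay below all normal arrays there (log2 change -0.51), Cd163 changed by -0.31 and Cd8a by -0.7. Cd4, dim on all adjacent arrays, changed by -1.27. The sum of 6 natural killer and cytotoxic cell markers was 201 to 239 on normal arrays, 299 to 466 on adjacent arrays and 166 to 216 in tumors, with Gzma and Ncr1 dim on all arrays and 0 called. B and plasma cell markers summed to 66.3 to 95.7, 286 to 5170 and 90.5 to 315, with Cd79b dim on all arrays and 1 of 3 higher in adjacent tissue. The only plasmacytoid dendritic cell marker summed was Tcf4. Its signal was 3780 to 4380 on normal arrays, 1290 to 3160 on adjacent arrays and 1350 to 2950 in tumors. Tcf4 was called lower in tumors (log2 change -1.13, adjusted p = 0.034) but not in adjacent tissue (-0.96, adjusted p = 0.057). Of 7 smooth muscle markers, 7 were called lower in adjacent tissue and 2 in tumors. Of 5 fibroblast markers, 3 were called lower in adjacent tissue and 0 in tumors. The fibroblast sums were 75200 to 76900 on normal arrays, 17100 to 47900 on adjacent arrays and 4210 to 57500 in tumors. Each marker of both lists lay below all normal arrays in the tumors as well, with tumor 1 above tumors 2 and 3. The part of these cell types in the changes of the interferon response genes was not tested.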

How the data were processed

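Total RNA of 9 rat bladder samples was labelled by 3′ in vitro transcription and hybridised to Affymetrix arrays. The authors normalized the scans with the MAS5 algorithm, and the deposited values are log2 signals, whose linear mean after trimming 2% at either end is the same on every array. MAS5 does not share information between arrays, and its dim probe sets are noisy. Probe-level files were not used here. Of 31099 probe sets, 57 array controls were left out, and 31042 were tested. The annotation names 1 gene for 20826, several for 436 and none for 9780. A probe set shared by Igtp and other genes was not used.

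The 3 comparisons were fitted separately in limma 3.58.1 (R 4.3.3) by lmFit and trended eBayes, on 3 arrays a group, whose number limits the precision. Benjamini-Hochberg adjustment ran over all tested probe sets, and an adjusted p under 0.05 was called. The method was also run on simulated data, in which noise was independent between probe sets and no array stood apart, unlike here. The members and lists were chosen with earlier results of these data known, as was the limit for dim signals. Values on every array are given for members past the threshold and for 1 member of each other role. Further members were chosen after their values were seen. Of the other pathway genes, those with the largest rise or fall in each comparison are named; Irf5, Myd88 and others were added after their values were seen. Alternatives were quantile normalization, arrays centred on their medians, removal of signals under the 40th percentile, 50 added before log2, no variance trend, all 9 arrays in 1 fit, a replicate block, each array left out, the methods' t-test, and averaged probe sets.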

Additional observations from a re-analysis of the deposited data

How the results depend on the processing

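In tumors against normal bladder, 7 genes changed, but 3 with all 9 arrays in 1 fit, where 12.2% of all genes were called higher and 8.57% lower. Without a variance trend 2 changed (5.38% and 3.89% of all genes), with the replicate number as a block 4 (8.88% and 6.89%), by the methods' t-test after adjustment 2 (4.93% and 2.64%), and by that test at an unadjusted p and 2-fold 4 (7.18% and 7.47%). Leaving out 1 array gave 2 to 12 genes, where 4.11% to 20.4% of all genes were called higher and 2.23% to 17.5% lower. In adjacent tissue, 11 changed, but 7 without a trend (6.35% and 6.97% of all genes) and 4 by the methods' t-test after adjustment (6.08% and 4.33%). Leaving out 1 array gave 6 to 13, where 5.96% to 15.6% of all genes were called higher and 5.66% to 14% lower. The replicate block gave 10 (10.3% and 9.88%). Without a trend, Ifngr1, Bst2, Mx2, Usp18 and Parp14 lost their calls in tumors, and Irf1, Isg15, Usp18 and Parp14 in adjacent tissue. The adjusted methods' t-test ended these calls too, and in adjacent tissue also those of Oasl, Rsad2 and Samhd1. With all 9 arrays Irf1 lost its call in adjacent tissue (adjusted p = 0.101). In tumors against adjacent tissue, 0 changed in each adjusted fit, and 2 by the methods' t-test at an unadjusted p and 2-fold (0.478% of all genes higher and 0.317% lower). With 1 array left out, 1 group has 2 arrays, and few degrees of freedom remain. The deviations of same-numbered tumor and adjacent samples correlated at 0.554, 0.087 and 0.419. Each adjacent sample correlated best with the tumor of its own number, while tumor 2 correlated best with adjacent sample 3 (0.303). Whether the numbers mark the rat is not stated, and the main fit did not pair the samples.

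Centring the arrays on their medians moved the median change of all genes to 0.25 in tumors and 0.21 in adjacent tissue, where that of the 35 genes was 0.53 and 0.89, and 10 and 14 genes were called. Of all genes, 17.6% were then called higher and 7.67% lower in tumors, and 21.2% and 9.2% in adjacent tissue. The direction of 4 genes that were not called turned. In tumors, Irf7 changed by 0.10 after centring, and by -0.32 to 0.19 with 1 array left out. In adjacent tissue with 1 array left out, Ifi44 ranged from -0.80 to 0.04, Ifit2 from -0.17 to 0.93, Irf7 from -0.13 to 1.31 and Mx2 from -1.0 to 0.83. Over the mean of its probe sets Mx2 changed by -1.16 in adjacent tissue, a mean that includes a dim probe set. No other member whose change is given turned under any of these alternatives.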
